A study of Homo sapiens with 22 samples.

Results

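Germinal centre programme genes are the genes that a B cell switches on while it divides and matures in a germinal centre, and they were followed here in 11 human lymphoma cell lines before and after an epigenetic drug treatment. The list held 7 genes, BCL6, MME, LMO2, BCL7A, MYBL1, SERPINA9 and S1PR2, and a gene's level was that of an array element annotated to it and to no other gene. Of these 7 genes 5 had such an element, 1 each, among 15461 genes with a named element and 32878 elements in all. No level of MYBL1 or SERPINA9 was analysed here.

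Each line was cultured once with aza/tsa and once untreated, which gave 11 aza/tsa and 11 untreated arrays. Aza/tsa stands for 5-aza-2'-deoxycytidine, an inhibitor of DNA methylation, at 1 µM for 72 h with a new dose every 24 h, joined by trichostatin A, an inhibitor of histone deacetylases, at 0.5 µM for the last 12 h. The study's methods place 3 lines in the activated B-cell type of diffuse large cell lymphoma (ABC; HLY-1, Ocily10, Ocily3), 3 in Burkitt lymphoma (BL; BL41, Raji, Ramos), 2 in the germinal centre type of the same disease (GCB; Sudhl4, Sudhl6) and 3 in follicular lymphoma (FL; K422, ROS-50, SC-1), and the last 3 types are called germinal-centre-derived here (n = 8). The medium was IMDM with human plasma for Ocily3 and Ocily10, whereas 9 lines were kept in RPMI with fetal calf serum. No culture had 1 drug alone, so the parts of the 2 drugs cannot be told apart. With 1 culture per line and condition, all p-values measure the spread between lines, not between repeat cultures of a line.

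BCL6 is the repressor that founds the programme: it holds the genes of plasma cell differentiation, cell cycle arrest and activation silent, and recruits corepressors with histone deacetylases to do so. MME (CD10) is a surface peptidase, LMO2 a nuclear adaptor protein, BCL7A a subunit of SWI/SNF chromatin remodellers and S1PR2 a receptor that confines B cells to the follicle. High BCL6, MME and LMO2 are used in the clinic to tell lymphomas of germinal centre origin from the activated B-cell-like type.

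Values are log2 signals of a quantile-normalized table in which every array had a median of 10.18, so a difference of 1 is 2-fold. The mean level of the 5 B cell markers measured ranged from 9.53 to 14.28 on aza/tsa arrays and from 10.61 to 16.33 on untreated arrays. The mean of the 7 T cell markers ranged from 8.67 to 10.12 on aza/tsa arrays and from 8.47 to 10.88 on untreated arrays, and that of the 5 measured myeloid markers from 8.93 to 12.26 and from 9.09 to 10.82. These means hide high values of single markers: the highest untreated value was 16.38 for CD3D, 15.70 for CD3G and 14.26 for MPO, against 9.92 for CD8A. None of those 12 genes passed the test after treatment, with medians of -0.05 and 0.04. HLY-1, Ocily10 and Sudhl4 gave arrays that were dimmer before normalization, with a 75th percentile of 2901 to 4547 units, against 4310 to 15058 units for the other lines, and calls between ABC and germinal-centre-derived lines are given with and without them.

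After aza/tsa, 3 of the 5 measured genes fell (BCL6, MME and BCL7A) and 2 did not pass the test (LMO2 and S1PR2). Over all elements 12.4% fell and 11.2% rose at an adjusted p below 0.05 (limma, line as a block, Benjamini-Hochberg over 32878 elements), and the median difference was -0.03. In whole cultures, fewer cells with a transcript and less of it per cell cannot be told apart.

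**Figure D1:**
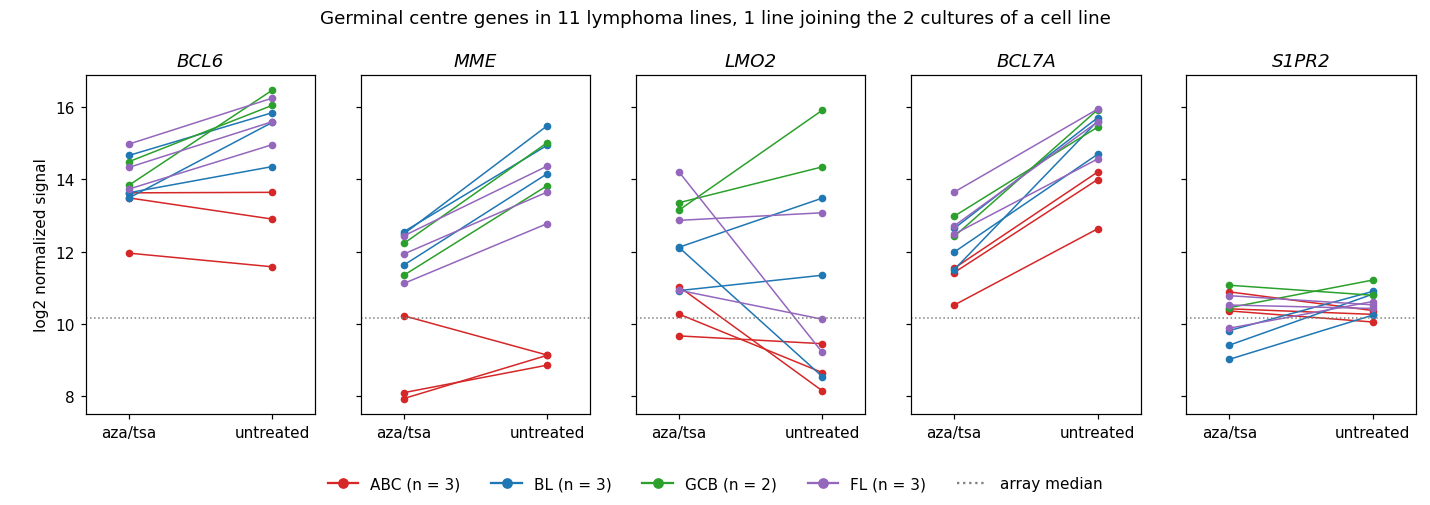
Log2 normalized signal (y axis) of the 5 genes on aza/tsa and untreated arrays, with 1 line joining the 2 cultures of each of the 11 cell lines and the array median of 10.18 dotted. BCL7A was lower after aza/tsa in 11 of 11 lines, BCL6 and MME were lower in 8 of 8 germinal-centre-derived lines, and LMO2 moved in both directions.

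BCL7A changed most evenly. Its level lay between 10.52 and 13.64 on aza/tsa arrays (median 12.42) and between 12.63 and 15.93 on untreated arrays (median 15.44). Each line was lower after treatment, with differences between -2.07 in K422 and -4.10 in BL41, the last a 17.2-fold change. The mean was 12.17 ± 0.87 in aza/tsa cultures and 14.93 ± 1.03 in untreated cultures (SD, n = 11), a difference of -2.76 (SE 0.19, 95% interval -3.17 to -2.35) or 6.78-fold (limma adjusted p = 9.2e-07). All 11 lines were at least 2-fold lower, as were 0.532% of all elements. The differences were -2.44 ± 0.30 in ABC (SD, n = 3), -3.28 ± 0.73 in BL (n = 3), -2.98 ± 0.73 in GCB (n = 2) and -2.41 ± 0.41 in FL (n = 3), so the types overlapped.

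MME, the CD10 peptidase, had 2 starting levels. In untreated cultures it was at 9.14, 9.14 and 8.86 in HLY-1, Ocily10 and Ocily3, under the array median, and between 12.77 and 15.48 in the 8 germinal-centre-derived lines. With aza/tsa the 3 ABC lines were at 10.23, 7.94 and 8.10 and the germinal-centre-derived lines between 11.12 and 12.55. All 8 germinal-centre-derived lines were thus lower after treatment, with differences between -1.65 in K422 and -2.99 in BL41, and none of the 8 aza/tsa values reached the lowest untreated value.

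Of the ABC lines, HLY-1 was higher in MME after treatment (1.08), while Ocily10 and Ocily3 were lower (-1.19 and -0.76), with all but the aza/tsa value of HLY-1 under the array median. Over 11 lines MME averaged 11.09 ± 1.67 in aza/tsa cultures and 12.85 ± 2.55 in untreated cultures (SD), a difference of -1.75 (SE 0.32, 95% interval -2.44 to -1.07) or 3.37-fold (limma adjusted p = 0.0010). The mean difference was -0.29 ± 1.21 in ABC (SD, n = 3) and -2.30 ± 0.49 in the germinal-centre-derived lines (n = 8).

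BCL6, the repressor itself, was also lower in all 8 germinal-centre-derived lines. In ABC lines it was 11.96 with aza/tsa and 11.58 untreated in HLY-1, 13.48 and 12.90 in Ocily10, and 13.62 and 13.64 in Ocily3. In BL lines it was 13.48 with aza/tsa and 15.56 untreated in BL41, 13.62 and 14.35 in Raji, and 14.65 and 15.83 in Ramos. Every BL line was lower after treatment, and Raji alone by less than 2-fold.

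In GCB lines BCL6 was 13.83 with aza/tsa and 16.45 untreated in Sudhl4, the steepest difference of all lines, and 14.48 and 16.04 in Sudhl6. The 3 FL lines differed by almost the same amount, -1.26 in K422, -1.27 in ROS-50 and -1.23 in SC-1. Across the 11 lines BCL6 averaged 13.83 ± 0.81 in aza/tsa cultures and 14.83 ± 1.55 in untreated cultures (SD), a difference of -0.998 (SE 0.28, 95% interval -1.59 to -0.40, limma adjusted p = 0.0173), with 9 lines lower and 7 of them at least 2-fold. The mean difference was 0.32 ± 0.30 in ABC (SD, n = 3), -1.33 ± 0.69 in BL (n = 3), -2.09 ± 0.76 in GCB (n = 2) and -1.25 ± 0.02 in FL (n = 3). BCL6 stayed above the array median on all 22 arrays.

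**Figure D2:**
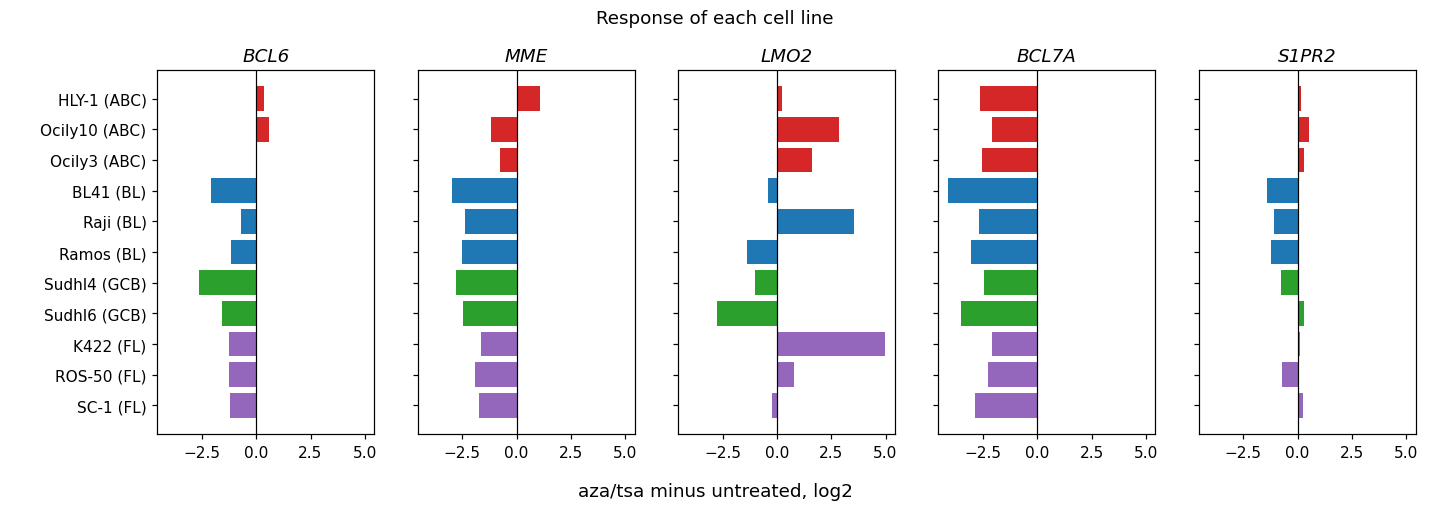
Aza/tsa minus untreated difference in log2 signal (x axis) of each cell line (rows, coloured by lymphoma type) for the 5 genes, 1 bar per line. BCL7A bars all point left, the 8 germinal-centre-derived lines point left for BCL6 and MME, and LMO2 ranges from -2.76 in Sudhl6 to 4.98 in K422.

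LMO2 had the widest range of responses of the 5 genes. The 6 lines under the array median when untreated were higher after treatment, and the 5 lines above it were lower. K422 was at 14.20 with aza/tsa and 9.21 untreated, Raji at 12.11 and 8.54, Ocily10 at 11.03 and 8.15, and Ocily3 at 10.27 and 8.66. These 4 lines were at least 2-fold higher after treatment, with a difference of 4.98 in K422 (31.6-fold). The 2 GCB lines started highest and were lower after treatment, at 13.35 with aza/tsa and 14.34 untreated in Sudhl4 and at 13.15 and 15.91 in Sudhl6.

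Ramos was also lower in LMO2, at 12.12 with aza/tsa and 13.48 untreated. HLY-1, BL41, ROS-50 and SC-1 differed by less than 2-fold (0.22, -0.42, 0.80 and -0.21). LMO2 averaged 11.87 ± 1.42 in aza/tsa cultures and 11.12 ± 2.67 in untreated cultures (SD, n = 11), and the difference of 0.76 did not pass the test (SE 0.61, 95% interval -0.55 to 2.06, limma adjusted p = 0.428). The untreated level enters the difference, so the order of the responses and that of the starting levels are not independent measurements. LMO2 was above the array median on 10 of 11 aza/tsa arrays and on 5 of 11 untreated arrays.

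S1PR2, the receptor that keeps B cells in the follicle, lay near the array median everywhere, between 9.02 and 11.07 on aza/tsa arrays and between 10.05 and 11.21 on untreated arrays. The 3 BL lines were at 9.42, 9.82 and 9.02 with aza/tsa and at 10.82, 10.90 and 10.24 untreated in BL41, Raji and Ramos, a difference of -1.24 ± 0.16 (SD, n = 3). These were the 3 lines at least 2-fold lower. ABC lines differed by 0.15 in HLY-1, 0.51 in Ocily10 and 0.31 in Ocily3, and GCB and FL lines lay between -0.76 and 0.28. The mean over 11 lines was 10.24 ± 0.64 with aza/tsa and 10.57 ± 0.34 untreated (SD), a difference of -0.33 that did not pass the test (SE 0.21, 95% interval -0.79 to 0.13, limma adjusted p = 0.316).

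For BCL6, MME, LMO2 and BCL7A the levels of the 11 lines lay closer together in aza/tsa cultures than in untreated cultures. The SD was 0.81 against 1.55 for BCL6, 1.67 against 2.55 for MME, 1.42 against 2.67 for LMO2 and 0.87 against 1.03 for BCL7A. S1PR2 went the other way, at 0.64 against 0.34. Over all elements 48.6% had a smaller SD on aza/tsa arrays.

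The promoters of the genes that fell are shown because 5-aza-2'-deoxycytidine inhibits DNA methylation at CpG sites. They are RefSeq sequences of GRCh38.p14, from 250 bases before to 50 bases after a transcript's start, and entries of 5 of the 7 genes are used here (BCL6, MME, BCL7A, S1PR2 and SERPINA9). Capitals mark every CpG in MME and BCL7A, and in BCL6 the 1 match to TTCCTNGAA, a motif that BCL6 protein binds.
BCL6, chr3:187745419-187745718, minus strand: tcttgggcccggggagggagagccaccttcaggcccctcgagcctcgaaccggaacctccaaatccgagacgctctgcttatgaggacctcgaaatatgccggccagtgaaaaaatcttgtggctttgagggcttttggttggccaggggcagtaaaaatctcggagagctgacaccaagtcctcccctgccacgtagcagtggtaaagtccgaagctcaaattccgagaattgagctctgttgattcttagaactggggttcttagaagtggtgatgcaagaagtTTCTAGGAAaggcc
MME, chr3:155079620-155079919, plus strand: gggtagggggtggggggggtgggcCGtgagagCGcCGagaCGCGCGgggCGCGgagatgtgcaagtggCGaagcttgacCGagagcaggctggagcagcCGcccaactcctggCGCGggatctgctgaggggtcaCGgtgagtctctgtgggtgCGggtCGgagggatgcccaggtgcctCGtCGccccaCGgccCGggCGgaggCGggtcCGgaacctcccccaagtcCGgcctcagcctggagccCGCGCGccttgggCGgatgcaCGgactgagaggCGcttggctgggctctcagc
BCL7A, chr12:122021634-122021933, plus strand: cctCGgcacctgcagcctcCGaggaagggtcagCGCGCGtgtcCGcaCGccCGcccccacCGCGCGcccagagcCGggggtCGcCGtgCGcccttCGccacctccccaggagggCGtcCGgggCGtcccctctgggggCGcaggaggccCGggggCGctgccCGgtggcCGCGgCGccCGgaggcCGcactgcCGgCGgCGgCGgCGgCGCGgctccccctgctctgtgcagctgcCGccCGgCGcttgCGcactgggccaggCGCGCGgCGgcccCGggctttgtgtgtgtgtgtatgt
BCL7A, the gene that fell in every line, had 44 CpG in this window, and 95.8% of the 35116 promoters had fewer. The MME window shown had 30 CpG and the other 3 MME windows between 19 and 27, while the BCL6 windows had 12 and 7. The S1PR2 window, of a gene that did not pass the test, had 31, and that of SERPINA9, whose level was not analysed, had 1. The median over all promoters was 14 CpG, with quartiles of 4 and 28.

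The BCL6 match is to the reverse complement of the motif and begins at base 37 counted from the transcript's start, and TTCCTNGAA was found on either strand in 1.56% of all promoters. Also searched on both strands were the octamer ATGCAAAT (in 1.77% of promoters), the E-box CANNTG (68.7%) and TATAAA (11.5%). The SERPINA9 window held 2 octamers, and the windows of BCL6, MME, BCL7A and S1PR2 held neither the octamer nor TATAAA. DNA methylation was not measured on these arrays.

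In untreated cultures, all 5 genes had a lower mean in ABC lines than in germinal-centre-derived lines. The direction was known beforehand for BCL6, MME and LMO2, which are used to tell these types apart. Of the 5, 2 passed the test, BCL6 and MME, against 0.158% of all elements called lower and 0.313% called higher. BCL6 was 12.70 ± 1.04 in ABC (SD, n = 3) and 15.63 ± 0.69 in germinal-centre-derived lines (n = 8), a difference of -2.92 (SE 0.50, 95% interval -4.01 to -1.84, limma adjusted p = 0.0218). MME was 9.05 ± 0.16 in ABC and 14.27 ± 0.87 in germinal-centre-derived lines, a difference of -5.22 (SE 0.50, 95% interval -6.30 to -4.15, limma adjusted p = 0.0003). The groups did not overlap for either gene. The 5 measured B cell markers, all but 1, also had a lower mean in untreated ABC lines, with a median difference of -2.19. Of these, CD79B passed the test (-2.60, limma adjusted p = 0.0354) and differed by -2.43 without HLY-1, Ocily10 and Sudhl4.

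LMO2 differed by -3.25 (SE 1.32), BCL7A by -1.82 (SE 0.42) and S1PR2 by -0.46 between untreated ABC and germinal-centre-derived lines, with limma adjusted p of 0.444, 0.10 and 0.668. The BCL6 call depended on which lines were included. Leaving out the dim arrays also removed ABC lines, so dim signal and the choice of lines cannot be told apart. Without HLY-1, Ocily10 and Sudhl4, Ocily3 was the only ABC line and was assumed to vary like the others, and the BCL6 difference was -1.87 (limma adjusted p = 0.583) and the MME difference -5.30 (adjusted p = 0.0295). Without Ocily10 alone or HLY-1 alone BCL6 was -3.02 (adjusted p = 0.0828) and -2.36 (adjusted p = 0.0705). Within the 9 lines grown in RPMI, where HLY-1 is the only ABC line, the differences were -4.05 for BCL6 and -5.13 for MME (adjusted p = 0.0206 and 0.0133). There too all the spread in the test came from the germinal-centre-derived lines, and the 1 ABC line had dim arrays. HLY-1 was also low in most of the measured B cell markers. In the RPMI lines these differed by -7.36 for MS4A1, -5.05 for CD79A, -4.10 for CD79B, -5.46 for CD22 and -0.58 for PAX5.

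In aza/tsa cultures MME alone passed the test between the lymphoma types, against 0.0395% of all elements called lower. It averaged 8.76 ± 1.27 in ABC and 11.97 ± 0.55 in germinal-centre-derived lines (SD), a difference of -3.21 (SE 0.50, limma adjusted p = 0.0278). This call was lost when Ocily3, Ocily10, Ramos, SC-1, Sudhl4 or ROS-50 was left out (-3.26 to -2.80, adjusted p = 0.0505 to 0.165), and within the lines in RPMI the difference was -1.74 (adjusted p = 0.299). Without HLY-1, Ocily10 and Sudhl4 it was -3.83 (adjusted p = 0.103). BCL6 averaged 13.02 in ABC and 14.14 in germinal-centre-derived lines, a difference of -1.12 (SE 0.45, limma adjusted p = 0.497).

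**Figure D3:**
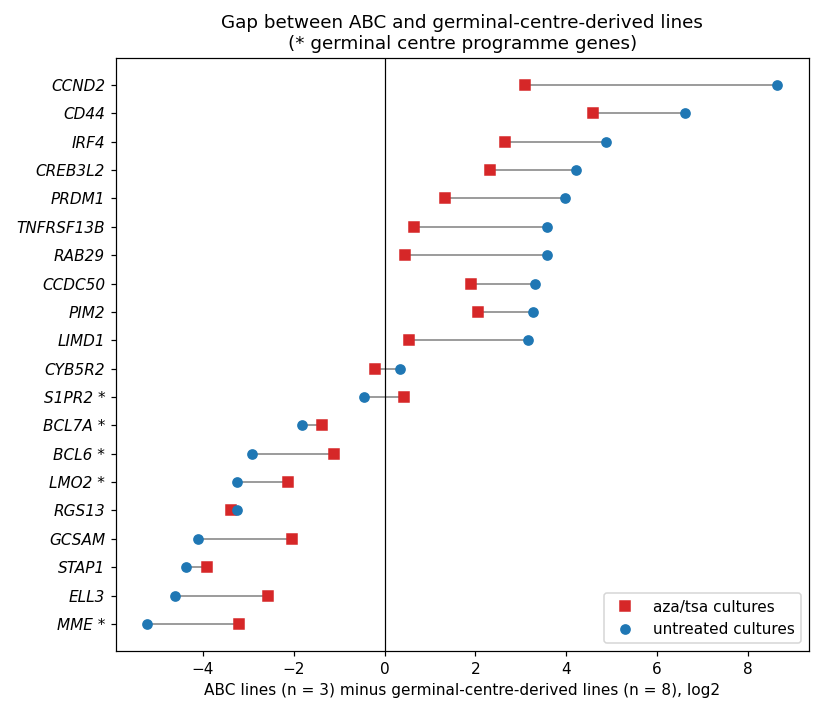
ABC minus germinal-centre-derived difference in mean log2 signal (x axis; 3 and 8 lines) for the 5 genes (asterisks), the 8 ABC classifier genes and 7 further genes of the lists, in aza/tsa cultures (squares) and untreated cultures (circles). The square lies nearer to 0 than the circle for all 5 genes, although S1PR2 changed sign at almost the same size, and RGS13 is an exception among the others shown. The 7 further genes had all passed the test on the untreated values. Over their whole lists, the difference was smaller with aza/tsa for 15 of 22 other germinal centre genes and 11 of 18 genes repressed by BCL6.

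The difference between the lymphoma types was smaller in size in aza/tsa cultures for all 5 genes, with a median of -1.38 against -2.92 in untreated cultures. For S1PR2 it changed sign at almost the same size, 0.43 (SE 0.44) with aza/tsa against -0.46 (SE 0.29) untreated. The 5 measured B cell markers had a median of -1.19 with aza/tsa and -2.19 untreated, and 4 of their differences were smaller. Over all elements 51.1% had a smaller difference, and of the 155 elements called between the types in untreated cultures 94.2% had, although those elements were chosen on the untreated values. The test of the change asks whether the response differed between ABC and germinal-centre-derived lines, and it called 0 of the 5 genes, against 0.0122% of all elements (limma; unadjusted p under 0.05 for 2 of the 5 and for 2477 elements). The response differed by 1.81 for BCL6 (SE 0.40, 95% interval 0.94 to 2.67, adjusted p = 0.236) and by 2.01 for MME (SE 0.48, 95% interval 0.98 to 3.05, adjusted p = 0.270). Without HLY-1, Ocily10 and Sudhl4 these were 1.31 and 1.48 (limma adjusted p = 0.896 and 0.879). Over all 4 lymphoma types limma's F test called 0 of the 5 genes and 0% of all elements, with an unadjusted p under 0.05 for 3 of the 5 and for 2141 elements.

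As a point of comparison, the 8 genes of an ABC classifier, which are high in that type, were measured in the same way. Their median ABC minus germinal-centre-derived difference was 1.27 in aza/tsa cultures and 3.45 in untreated cultures. All 8 differences were smaller in size after treatment, as were 51.1% over all elements. CYB5R2 differed by only 0.34 in untreated cultures and changed sign, to -0.20, with aza/tsa. None of the 8 passed the test in either condition. Of the 8 genes, 1 rose after aza/tsa (CREB3L2, by 1.12, limma adjusted p = 0.0359) and none fell. Over all elements 11.2% rose and 12.4% fell.

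Other genes that B cells use in the germinal centre reaction were set beside these 5. Of 26 listed, 22 were measured. Of these, 11 fell and 0 rose, where 12.4% of all elements fell and 11.2% rose, and the median over the 22 was -1.05. RGS13, a regulator of chemokine receptor signalling, averaged 11.84 ± 2.14 in aza/tsa cultures and 15.93 ± 1.72 in untreated cultures (SD, n = 11), a difference of -4.09 (SE 0.31) with 11 of 11 lines lower. POU2AF1, the octamer coactivator that germinal centres need, fell by 3.22 (SE 0.21) and was also lower in all 11 lines. GCSAM, a germinal centre signalling adaptor, fell by 2.16 (SE 0.48, limma adjusted p = 0.0045), with 9 lines lower.

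The fall reached genes of different roles: ITPKB and KLHL6 of receptor signalling (-2.44 and -1.78), CD38 (-1.14), the transcription factors MEF2C and POU2F2 (-1.13 and -0.92) and ARHGEF1 (-1.04), which acts under S1PR2. ELL3 (-2.20) and ASB13 (-0.77) made up the 11. The G protein subunit GNA13 at -0.58 and the receptor P2RY8 at -0.51 did not pass. Neither did the chemokine receptors CXCR4 (0.14) and CXCR5 (-1.06), nor the histone methyltransferase EZH2 (-0.32). The transcription factors BACH2 (-1.18), SPIB (-1.06), EBF1 (-0.62), IRF8 (-0.08) and FOXO1 (0.16) did not pass either. With STAP1 (-0.67) these made up the 11 that did not pass. Between the lymphoma types, RGS13 differed by -3.38 with aza/tsa and by -3.26 untreated, and by -2.22 and -2.23 without HLY-1, Ocily10 and Sudhl4.

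**Figure D4:**
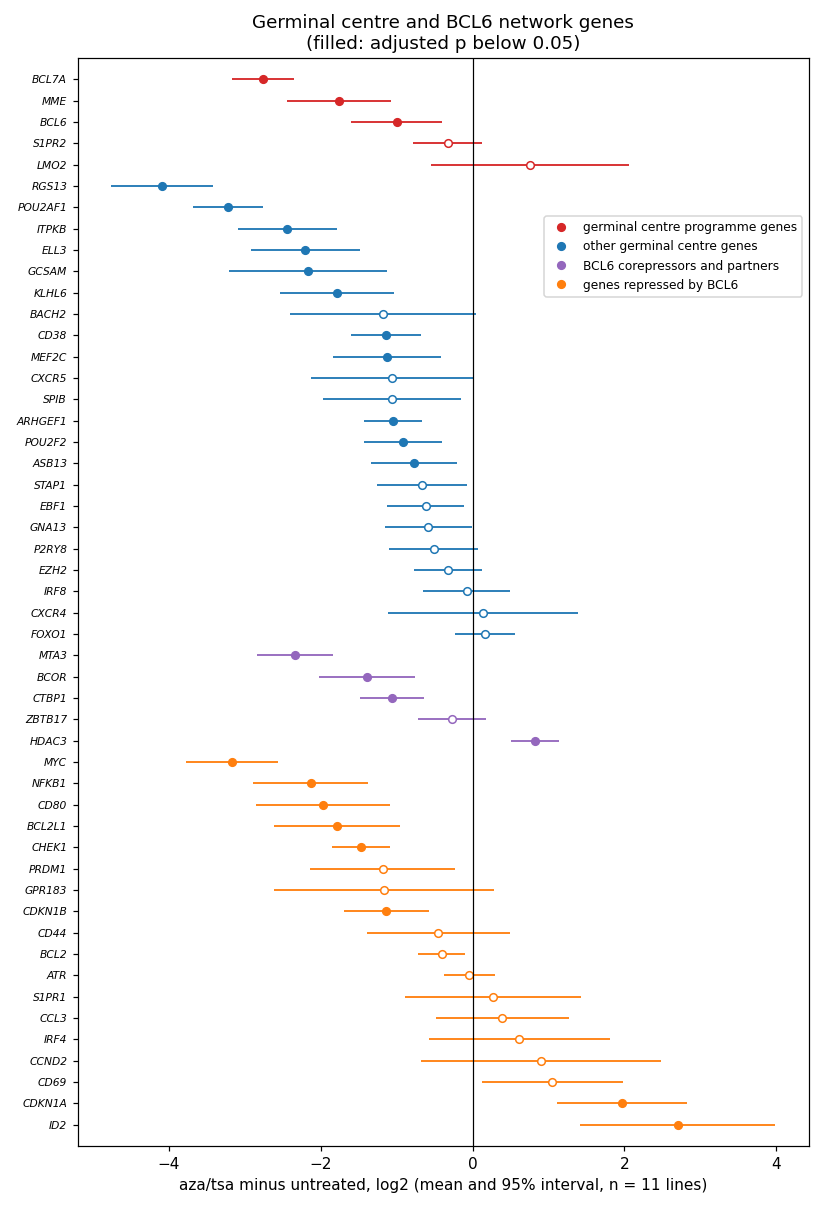
Aza/tsa minus untreated difference in log2 signal (x axis; mean and 95% interval over 11 lines) for the 5 germinal centre programme genes and the 3 related lists, with filled points for an adjusted p below 0.05. Of the 22 other germinal centre genes 11 are filled and all 11 lie left of 0, while genes repressed by BCL6 lie on both sides.

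BCL6 acts with corepressors and other partners, and of 7 listed 5 were measured. Of these 5, 3 fell and 1 rose, where 12.4% of all elements fell and 11.2% rose. Those that fell were MTA3, a subunit of the NuRD complex (-2.34, SE 0.23), BCOR (-1.39, SE 0.29) and CTBP1 (-1.06, SE 0.19). HDAC3, the deacetylase of the SMRT and NCoR complexes, rose by 0.82 (SE 0.15, limma adjusted p = 0.0009), and ZBTB17 was at -0.27.

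Of the 20 listed genes that BCL6 is known to repress 18 were measured, of which 6 fell, 2 rose and 10 did not pass, with a median of -0.43. The share of all elements that rose was 11.2%, close to 2 of 18, and 12.4% fell. The 2 that rose were ID2, an inhibitor of E proteins, by 2.70 (SE 0.60, limma adjusted p = 0.0041) and CDKN1A, the p21 cell cycle inhibitor, by 1.97 (SE 0.40, limma adjusted p = 0.0022). ID2 was higher in 10 lines and CDKN1A in 11. The steepest falls in the list were those of MYC (-3.17, SE 0.28) and NFKB1 (-2.13, SE 0.35). PRDM1, the plasma cell regulator that BCL6 silences, averaged 8.35 in aza/tsa cultures and 9.54 in untreated cultures and did not pass the test (-1.18, limma adjusted p = 0.0709), and IRF4 was at 0.62 (adjusted p = 0.484).

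The general B cell markers fell too, beside the germinal centre genes. Of the 5 measured, 4 fell and 0 rose, against 12.4% and 11.2% of all elements, with a median of -1.77: MS4A1 (CD20; -2.55), CD79A (-1.68), CD79B (-2.78) and CD22 (-1.77). PAX5 was at 8.87 in aza/tsa cultures and 9.05 in untreated cultures, so the element of this defining factor of B cells lay under the array median. Their part in the fall of the germinal centre genes was not tested.

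The genes whose levels ran most like each member were taken from 10398 named genes by Pearson r over the 22 arrays, which share the treatment, the lines and the normalization. They were SEL1L3, DNAJC10 and GPR18 for BCL6 (r = 0.902, 0.902 and 0.867) and CD27, HLA-DOB and RGCC for MME (0.908, 0.885 and 0.877). For BCL7A they were QRSL1, NSMAF and E2F8 (0.928, 0.921 and 0.913). LMO2 had PDZRN3, HDAC1 and SEPHS2 (0.821, 0.755 and 0.731), and S1PR2 had the weakest, ABHD14B, RANGRF and SPC24 (0.707, 0.640 and 0.638).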

How the data were processed

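RNA of 22 cultures was hybridised by the authors to the Applied Biosystems Human Genome Survey Microarray, a 1-colour chemiluminescence array. Per the labels and file contents, the deposited raw signal of each array is an intensity, and the deposited series table holds log2 values after quantile normalization by the authors. Quantile normalization recomputed from the raw intensities gave the same values. The log2 table was used as deposited.

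Elements were named through the platform annotation given for these arrays: of 32878 elements 17073 had 1 gene, 139 had several and 15666 had none. Lymphoma types came from the study's methods, as the labels name only the line. The members and gene lists were chosen with earlier results of these data known, so no list gives independent support. Paired differences were tested with limma 3.58.1 (R 4.3.3; lmFit and eBayes, cell line as a block, Benjamini-Hochberg over all elements, threshold 0.05), and ABC and germinal-centre-derived lines within a condition or by their differences. Both cultures of a line are the same cell line, and their deviations correlated at 0.361 to 0.585, against at most 0.180 between lines. The limma steps were tested on simulated data. Named were all members with an element, the 2 largest rises and falls past the threshold in each list, PRDM1, IRF4, RGS13 and GCSAM, and the 3 genes most like each member among genes above the array median on at least 6 arrays. Other list genes in the text or plots were chosen after their values were seen. Alternatives covered scaling, floors and filters on dim values, the element choice, the variance trend, the medium, the line block and each line left out. The number of lines limits the precision.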

Additional observations from a re-analysis of the deposited data

Results flagged for a closer look

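The LMO2 response had opposite signs in 2 lymphoma types, higher after aza/tsa in 3 of 3 ABC lines and lower in 2 of 2 GCB lines, and the mean difference between these types was 3.44 on the log2 scale. The difference between this pair of types was not tested, and limma's F test over the 4 types gave an adjusted p of 0.824.

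The S1PR2 response was likewise positive in 3 of 3 ABC lines and negative in 3 of 3 BL lines, with a mean difference of 1.56 between the types. This pair was not tested either, and limma's F test gave an adjusted p of 0.729. The S1PR2 signals lay close to the array median. None of 15 checks for a line standing apart among the 8 germinal-centre-derived lines found one.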

How the results depend on the processing

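Without the replicate block (the cell line term), 1 member fell after aza/tsa (BCL7A) and 3 with it, as BCL6 and MME had an adjusted p of 0.219 and 0.201 at unchanged differences of -0.998 and -1.75, and 6 in place of 11 other germinal centre genes fell (limma). Leaving out 1 line at a time, 3 to 3 members and 9 to 12 other germinal centre genes fell. The members called lower in untreated ABC lines numbered 1 to 2 with 1 line left out and 1 without HLY-1, Ocily10 and Sudhl4. In aza/tsa cultures they numbered 0 to 1 with 1 line left out, and 0 with a floor at the 25th percentile (MME -2.74, adjusted p = 0.0647), in RPMI lines only, and without those 3 lines (MME -3.83, adjusted p = 0.103). The ABC difference of S1PR2 in aza/tsa cultures was -0.13 with no normalization, against 0.43, and that of the LMO2 response was -0.24 in RPMI lines only, against 1.12. Causes of these changes were not tested. Of 410 alternatives over 20 gene values, 394 kept direction and call, 14 lost a call and 2 changed direction. Most of the 20 values had not passed the test at first, so they had no call to lose. Recomputing the quantile normalization could not move a difference, nor could averaging elements, as each member had 1. Among values that had passed, the MME difference between the types in aza/tsa cultures lost its call in 9 of 20 alternatives.

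Scaling to a common median moved the median of all elements to -0.15, with 5637 elements lower and 2603 higher, against 4064 and 3674. BCL6, MME and BCL7A were then at -1.35, -1.94 and -2.99, still below that shift. In the 8 germinal-centre-derived lines alone, a fit chosen after seeing the data, the differences were -1.49 for BCL6 (SE 0.22, limma adjusted p = 9.2e-04), -2.30 for MME (SE 0.20) and -2.88 for BCL7A.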

Other observations

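Among genes that BCL6 is known to repress, 3 of 18 were higher in untreated ABC lines than in untreated germinal-centre-derived lines, while 0.313% of all elements were called higher. PRDM1, the regulator of plasma cell differentiation, differed by 3.97 (limma adjusted p = 0.0054), the adhesion receptor CD44 by 6.62 (adjusted p = 0.0031) and the cyclin CCND2 by 8.64 (adjusted p = 2.6e-05). In aza/tsa cultures the same differences were 1.34, 4.58 and 3.10, and none passed the test (limma adjusted p = 0.564, 0.170 and 0.15). These 3 genes are the ones called on the untreated values, and over the whole list 11 of 18 differences were smaller in aza/tsa cultures. The response itself differed between the types for CCND2, by -5.54 (adjusted p = 0.0316), and did not pass for PRDM1 (-2.63, adjusted p = 0.351) or CD44 (-2.04, adjusted p = 0.599). Without HLY-1, Ocily10 and Sudhl4, whose arrays were dim, Ocily3 was the only ABC line. The untreated differences were then 2.32 for PRDM1 (adjusted p = 0.324), 9.14 for CD44 (adjusted p = 0.0021) and 8.68 for CCND2 (adjusted p = 0.0072), and the CCND2 response difference was -4.89 (adjusted p = 0.560). In the lines in RPMI, with HLY-1 as the only ABC line, the untreated differences were 5.22, 3.86 and 8.39 (adjusted p = 0.0040, 0.0594 and 0.0022), and the CCND2 response difference was -5.58 (adjusted p = 0.130). CCND2 and CD44 were chosen after their values were seen, and the fits to fewer lines after seeing the data.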
